A study of Mus musculus with 4 samples.

Results

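The collagen and laminin genes measured in the mouse amygdala were chosen by name: every gene whose name in the array files is a collagen alpha chain (Col, a number, a, a number) or a laminin chain (Lama, Lamb or Lamc with a number), with a probe that the scanner software marked as well above background on 3 or 4 arrays of some group. Of 49 such names, 41 met this rule, 33 collagens and 8 laminins, among 19463 genes tested in all. The 8 names with no probe past the filter were Col4a3, Col4a5, Col6a3, Col10a1, Col15a1, Col28a1, Lama1 and Lamc3. Lamb1, Col6a4, Col6a6 and Col26a1 stand in the files under other names and so lie outside the rule.

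The labels give 4 groups of 4 mice, all male C57BL/6J at 10 weeks of age, from which the whole amygdala was taken for RNA. The groups were P2X7 receptor knockout (KO) mice given lipopolysaccharide (LPS, a bacterial cell wall component), KO mice given saline, wild-type (WT) mice given LPS, and WT mice given saline. All injections were intraperitoneal, the tissue was taken 6 h later, and the labels give the LPS dose as 7.5 µg per mouse and as 250 µg/kg. The P2X7 receptor is an ATP-gated ion channel of immune and glial cells; the labels do not say which part of P2rx7 the knockout lacks, or how it was made. Each group has 4 arrays. The labels do not tie an array to a mouse, so p-values measure the spread between arrays.

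Collagens are secreted triple helices. Fibrillar chains (types I, II, III, V, XI, XXIV and XXVII) form rope-like fibrils, and in the brain type I and III collagens are known mainly from the meninges and from fibroblasts around larger vessels. Type IV collagen chains and laminins, which are trimers of an alpha, a beta and a gamma chain, build the basement membrane, the sheet on which brain capillary endothelium, pericytes and astrocyte end-feet rest. The remaining collagens include chains that form other networks or beaded filaments, decorate fibrils, anchor membranes, lie in basement membranes or sit in cell membranes.

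Levels below are log2 of the background-subtracted spot intensity minus the 75th percentile of the same array, so a level of 0 is that percentile and a difference of 1 is a doubling. A gene is read by its brightest kept probe, and levels of different genes are not compared. "Called" means an adjusted p under 0.05 in limma, Benjamini-Hochberg adjusted over all genes. The 75th percentile itself was 345.9 to 614.0 intensity units on KO arrays and 581.3 to 1164.7 on WT arrays. All WT arrays lie on slides 1 and 2 and all KO arrays on slides 3 and 4, scanned in another session, so genotype and slide cannot be told apart. On each slide 2 LPS and 2 saline arrays of 1 genotype stand side by side. P2rx7 itself was checked with 2 probes: 1 read -1.69 to -0.80 on the 8 KO arrays and -0.15 to 0.90 on the 8 WT arrays, a KO minus WT difference of -1.51 after saline (limma adjusted p = 0.000211), while the other read -4.18 to -3.26 in KO and -4.85 to -3.20 in WT. Of 10 amygdala markers 9 were measured (all but Crh), and their mean level was 1.21 to 1.45 on KO arrays and 1.10 to 1.51 on WT arrays. The mean level of 12 LPS-response genes was 1.86 to 2.19 in KO after LPS and -3.83 to -3.28 in KO after saline; it was -0.20 to 1.84 in WT after LPS and -3.92 to 1.36 in WT after saline. The arrays labelled WT saline replicates 1 and 2, both on slide 1, read 1.26 and 1.36 in that list, inside the range of the WT LPS arrays, while the arrays labelled WT saline replicates 3 and 4 read -3.92 and -3.90. In these genes the first pair goes against its saline label, so what the WT comparison of LPS with saline measures is in doubt; whether the labels are in error was not tested. Main results that rest on WT saline arrays are also given without that pair. KO saline replicate 1 stood apart in the collagens and laminins: it was the highest of the 4 KO saline arrays for 30 of the 41 members (73.2%, against 47.2% of all genes), and main results are also given without it.

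Because a collagen is read here through 60-base probes, the probes that the results turn on are shown as the files list them, on mouse build mm9. The Col1a2 probe carries the only change called after LPS with all arrays when each gene is read by its brightest probe. The pairs of Lama2, Col2a1 and Lama4 show how probes of 1 gene relate, with capitals marking a run of bases that both probes of a pair share. The probes lie at chr6:4490619-4490678 (Col1a2), chr10:26704229-26704288 and chr10:26710714-26712724 (Lama2, the longer span crossing an exon junction), chr15:97806505-97806564 and chr15:97806485-97806544 (Col2a1), and chr10:38825794-38825853 and chr10:38825032-38825822 (Lama4).
Col1a2: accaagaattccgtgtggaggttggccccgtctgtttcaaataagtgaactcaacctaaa
Lama2, brightest probe: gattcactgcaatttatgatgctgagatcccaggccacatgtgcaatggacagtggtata
Lama2, other probe: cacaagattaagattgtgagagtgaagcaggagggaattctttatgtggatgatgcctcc
Col2a1, brightest probe: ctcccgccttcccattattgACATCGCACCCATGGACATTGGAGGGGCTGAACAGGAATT
Col2a1, other probe: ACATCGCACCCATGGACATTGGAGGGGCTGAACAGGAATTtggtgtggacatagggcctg
Lama4, brightest probe: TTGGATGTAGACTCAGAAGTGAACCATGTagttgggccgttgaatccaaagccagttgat
Lama4, other probe: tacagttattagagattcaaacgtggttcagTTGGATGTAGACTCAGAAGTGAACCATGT

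In the KO amygdala Col1a2, the alpha-2 chain of type I collagen, was lower after LPS than after saline, and no other collagen or laminin was called. Col1a2 read -0.06, 0.26, 0.26 and 0.99 on the 4 KO LPS arrays, against 1.48, 1.41, 1.37 and 1.42 on the KO saline arrays. The groups did not overlap, and the saline arrays lay within a narrow band while the LPS arrays were spread. Col1a2 averaged 0.36 ± 0.44 after LPS and 1.42 ± 0.05 after saline (SD, n = 4 each), a log2 change of -1.06 ± 0.22 (SE, limma adjusted p = 0.0118), or 0.48 of the saline level. So 1 of 41 members was called, where 3.64% of all genes were, and 7 members (17.1%) had an unadjusted p under 0.05, where 14.5% of all genes had. Col1a2 was also called without KO saline replicate 1 (-1.04, adjusted p = 0.0237), where 3.88% of all genes were called. Within slide 3 the change was -1.30 (adjusted p = 0.0245) and within slide 4 it was -0.82 (0.959); with normexp background correction it was -0.84 (0.0585).

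Col1a1, which encodes the partner alpha-1 chain of type I collagen, had a change of the same size that was not called over all 16 arrays. It read -0.54, -0.78, -0.43 and -0.33 after LPS, against 0.99, 0.31, 0.14 and 0.45 after saline in KO, with every LPS array below every saline array. The log2 change was -0.995 ± 0.30 (SE, limma adjusted p = 0.0911), and a second kept probe of Col1a1 gave -1.03 ± 0.36 (adjusted over probes, 0.182). Without KO saline replicate 1, the 0.99 array, the change was -0.82 ± 0.31 (adjusted p = 0.193). With the WT saline arrays of slide 1 left out of the fit, which leaves these values as they are and lowers the pooled spread, the adjusted p was 0.00635; 3 members, Col1a1, Col1a2 and Col4a1, were called in that fit, where 4.9% of all genes were.

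Other fibrillar chains in KO had changes in both directions. Col3a1, the single chain of type III collagen, which is usually deposited with type I, read -1.55, -1.33, -1.33 and -0.92 after LPS, against -1.72, -2.04, -2.35 and -2.07 after saline. These groups did not overlap either, and the difference of 0.76 ± 0.25 (SE) had an adjusted p of 0.124 in limma. With normexp background correction the Col3a1 change shrank to 0.12 (adjusted p = 0.843). Col5a3, a chain of the fibril-nucleating type V collagen, read -1.18, -0.91, -1.13 and -0.59 after LPS, against -0.79, -2.27, -2.13 and -2.07 after saline. The high saline array is replicate 1: with it the change was 0.86 ± 0.31 (adjusted p = 0.185), and without it Col5a3 was called at 1.20 ± 0.25 (adjusted p = 0.0151). With normexp background correction and all arrays the Col5a3 change was 0.25 (adjusted p = 0.557). Over the 11 fibrillar members the median change in KO was -0.07, with a range of -1.06 (Col1a2) to 0.86 (Col5a3). Of all 41 members, 6 had groups that did not overlap, Col1a1, Col1a2, Col3a1, Col4a1, Col8a2 and Col22a1, where 11.3% of all genes did.

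**Figure D1:**
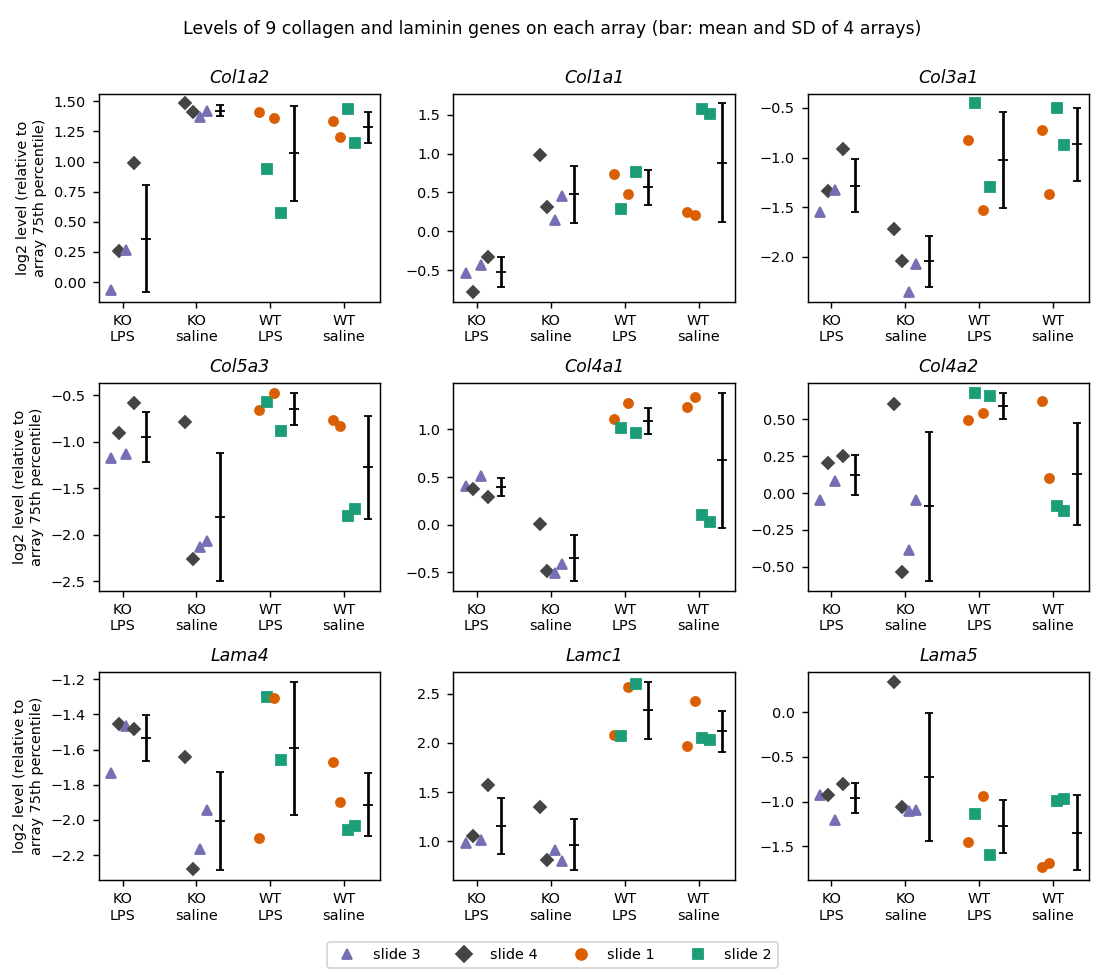
Log2 level (relative to the array's 75th percentile) of 9 genes on each of the 16 arrays, by group, with symbols for the slide; the bar gives the mean and SD of 4 arrays. Col1a2 averages 0.36 in KO after LPS and 1.42 in KO after saline, and for Col4a1 both slide 1 arrays of WT saline stand above both slide 2 arrays.

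The upstream sequences of Col1a2 and Col3a1 are shown because these fibrillar genes had opposite signs in KO; the RefSeq table held an upstream sequence for 30 of the 41 members (build GRCm38.p6), and none for Col1a1. The sequences are the 250 bases before the annotated start, at chr6:4505368-4505617 (Col1a2, plus strand) and chr1:45311288-45311537 (Col3a1, plus strand). Capitals mark 3 short motifs, the CCAAT box, the GC box GGGCGG and the TATA box TATAAA; both strands were searched.
Col1a2: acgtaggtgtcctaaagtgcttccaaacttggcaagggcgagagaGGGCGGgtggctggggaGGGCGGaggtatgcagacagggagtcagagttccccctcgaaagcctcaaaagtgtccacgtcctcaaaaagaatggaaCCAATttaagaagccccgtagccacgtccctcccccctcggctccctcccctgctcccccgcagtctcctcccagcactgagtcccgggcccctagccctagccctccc
Col3a1: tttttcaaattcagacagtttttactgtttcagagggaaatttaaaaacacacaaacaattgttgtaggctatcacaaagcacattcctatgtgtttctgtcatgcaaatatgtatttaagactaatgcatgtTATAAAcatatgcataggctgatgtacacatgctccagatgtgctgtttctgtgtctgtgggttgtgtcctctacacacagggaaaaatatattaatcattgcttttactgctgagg
The Col1a2 window holds 1 CCAAT, 109 bases before the start, and 2 GGGCGG, 205 and 188 bases before it; the Col3a1 window holds 1 TATAAA, 117 bases before the start. Among the 32851 windows of that length in the table, 33.8% hold CCAAT, 32.7% hold GGGCGG and 12.4% hold TATAAA on either strand. Among the 30 members with a window the counts were 11, 18 and 4. The shares are per window, while a member was counted if any window under its name held the motif.

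Of the network-forming collagens, Col4a1 was higher on every KO LPS array than on every KO saline array, though not called. Col4a1, a main chain of type IV collagen in every basement membrane, read 0.41, 0.37, 0.51 and 0.29 after LPS, against 0.01, -0.49, -0.51 and -0.41 after saline. The change was 0.74 ± 0.26 (SE, limma adjusted p = 0.172). Col4a1 was called with the slide as a block (adjusted p = 0.0479) and within slide 3 (0.92, adjusted p = 0.0321). It was not called within slide 4 (0.57, adjusted p = 0.959) or with normexp background correction (0.61, adjusted p = 0.12). With its probes averaged it was not called either (0.53, adjusted p = 0.327). The second Col4a1 probe gave 0.32 ± 0.26. Col4a2, its partner chain, had a change of 0.21. In RefSeq (GRCm38.p6) the starts of Col4a1 and Col4a2 lie head to head on chromosome 8, at 11312826 on the minus strand and 11312805 on the plus strand, so that the annotated genes overlap by 22 bases. Col8a2, a chain of the type VIII collagen of vessel walls and corneal endothelium, read -2.61, -2.47, -3.01 and -3.08 after LPS and -1.20, -2.10, -2.29 and -1.46 after saline, a change of -1.03 ± 0.59 (SE, adjusted p = 0.450). The second kept probe of Col4a6, a chain of some epithelial and smooth muscle basement membranes, was called lower after LPS in KO (-1.50, adjusted over probes 0.0167), and the brightest probe gave -0.35.

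None of the 8 laminins was called after LPS in KO. Lama4, the alpha chain of endothelial laminin-411, read -1.73, -1.45, -1.47 and -1.48 after LPS, against -1.64, -2.28, -2.16 and -1.94 after saline, and the groups overlapped through saline replicate 1. Its change was 0.47 ± 0.20 (SE, limma adjusted p = 0.272), and the other kept probes gave 0.37 and 1.003. With normexp background correction the Lama4 change was -0.04 (adjusted p = 0.933). Lama5, the alpha chain of laminin-511 in mature capillaries, read -0.93, -0.92, -1.20 and -0.80 after LPS, against 0.34, -1.07, -1.10 and -1.09 after saline. Apart from the high replicate 1, the saline arrays of Lama5 lay within the range of the LPS arrays. Lamb2, the beta chain of vascular and synaptic laminins, had a change of -0.64 with that array and -0.32 without it. Lamc1, the gamma chain shared by most laminins, had a change of 0.19.

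The fibril-associated, beaded-filament, anchoring, transmembrane and multiplexin collagens gave no call after LPS in KO. Their changes ran from -0.60 (Col22a1) to 0.43 (Col19a1). Col22a1, a collagen of tissue junctions, read 0.06, 0.13, -0.32 and 0.13 after LPS, against 0.86, 0.68, 0.14 and 0.73 after saline, and the highest LPS array lay just below the lowest saline array. Col18a1, the basement membrane collagen that yields endostatin, had a change of 0.41 from its brightest probe and 0.30 from the other. Over all 41 members the median change was -0.06, against -0.09 over all genes. With normexp background correction these medians were -0.50 and -0.22, so they depend on how background was removed. In that setting no member was called, where 2.18% of all genes were. There, 22 members (53.7%) had an unadjusted p under 0.05 in limma, where 39.7% of all genes had.

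**Figure D2:**
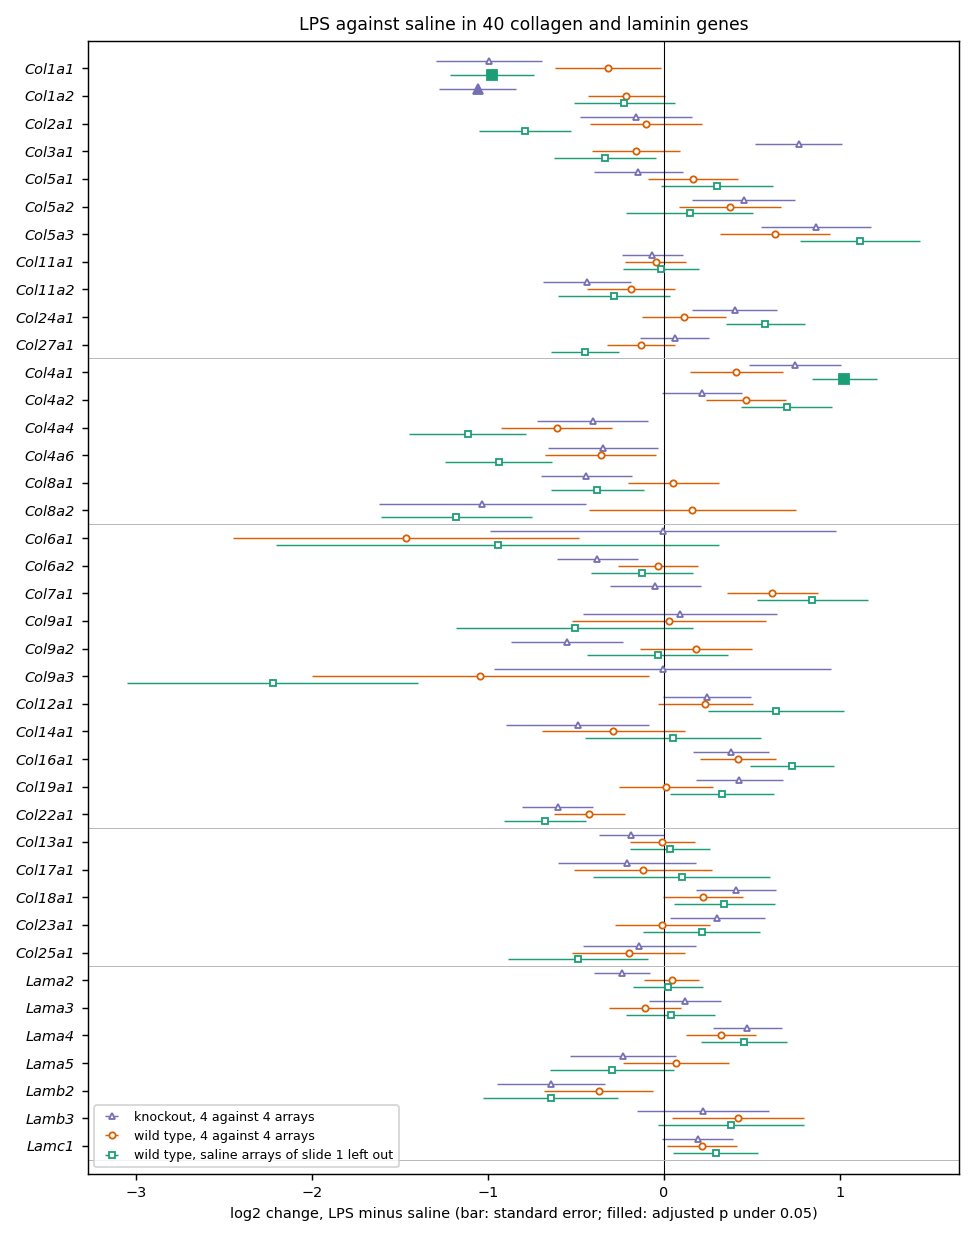
Log2 change (LPS minus saline, x axis) of 40 of the genes in KO, in WT, and in WT without the saline arrays of slide 1, with standard errors; filled symbols have an adjusted p under 0.05. Col1a2 in KO at -1.06 is filled, and in WT only Col1a1 at -0.98 and Col4a1 at 1.02 are filled, both without the saline arrays of slide 1.

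In the WT amygdala no collagen or laminin was called after LPS, as was the case for nearly all genes (0.0103% called); 1 member, Col7a1, had an unadjusted p under 0.05, where 6.6% of all genes had. Col1a2 read 1.41, 0.94, 1.36 and 0.57 in WT after LPS, against 1.34, 1.21, 1.43 and 1.16 after saline, and these groups overlapped. The change of Col1a2 in WT was -0.21 ± 0.22 (SE). Col7a1, the anchoring-fibril collagen, was the only member whose WT groups did not overlap (4.79% of all genes did so), at 0.61 ± 0.26 (adjusted p = 0.696).

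Without WT saline replicates 1 and 2, a choice made after seeing the data, 2 members were called in WT, where 3.14% of all genes were called. Col4a1 read 1.11, 1.01, 1.27 and 0.97 on the WT LPS arrays, against 0.10 and 0.03 on the slide 2 saline arrays; the saline arrays left out read 1.24 and 1.34. Col4a1 rose by 1.02 ± 0.19 (SE, limma adjusted p = 0.00668) in that fit, against 0.41 ± 0.26 (0.851) with all arrays. Col1a1 read 0.74, 0.28, 0.48 and 0.76 after LPS, against 1.58 and 1.51 on the slide 2 saline arrays and 0.24 and 0.20 on those left out.

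Col1a1 thus fell by 0.98 ± 0.24 in WT (SE, adjusted p = 0.0421) without the slide 1 saline arrays, and its change was -0.32 ± 0.30 with all arrays. Only 2 saline arrays, both of slide 2, stand behind these WT calls, and they stood apart from the other WT arrays in hippocampal markers. Their mean over hippocampal markers was -0.50 and -0.34, against -1.75 to -1.48 on the WT LPS arrays and -1.84 and -1.51 on the saline arrays left out. For oligodendrocyte markers they read 2.61 and 2.59, just above the 0.92 to 2.44 of the WT LPS arrays. For choroid plexus markers they read -0.98 and -0.75, inside the range of -3.34 to -0.46 on the WT LPS arrays. The saline arrays left out read -3.33 and -3.005 for choroid plexus markers. The part of these markers in the WT calls was not tested. The WT LPS arrays in that fit lie on slides 1 and 2. Within slide 2 alone Col4a1 gave 0.92 (limma adjusted p = 0.0938) and Col1a1 -1.02 (0.146), and neither was called. Within slide 1 alone the signs were opposite, at -0.10 for Col4a1 and 0.39 for Col1a1. For Col1a2 the fit without the slide 1 saline arrays gave -0.23 (adjusted p = 0.776), and for Col3a1 -0.34 (0.642). Col5a3 read -0.66, -0.57, -0.48 and -0.88 in WT after LPS, against -0.76, -0.83, -1.80 and -1.72 after saline, with the slide 1 saline arrays among the LPS values. Its change was 1.11 ± 0.34 without the slide 1 saline arrays (adjusted p = 0.107) and 0.63 ± 0.31 with them.

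The LPS response in KO minus that in WT was tested as an interaction, and no member was called (0.036% of all genes were, 7 in number). At an unadjusted p under 0.05 there were 2 members (4.88%), where 6.9% of all genes were. Those 2 were Col1a2 at -0.84 ± 0.31 (SE, unadjusted p = 0.0157, adjusted 0.584) and Col3a1 at 0.92 ± 0.35 (unadjusted p = 0.0181, adjusted 0.603). The call of Col1a2 in KO and its absence in WT is therefore not a called difference between the genotypes.

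Genes that make, cross-link and bind collagens were followed from lists of known genes. Of all genes, 1.14% were called lower and 2.5% higher in KO after LPS. Of 13 small leucine-rich proteoglycans and other fibril-associated proteins measured, 3 fell in KO after LPS and none rose: Omd (osteomodulin, -1.17), Fmod (fibromodulin, which binds type I collagen fibrils, -1.27) and Prelp (which links collagen to basement membranes, -0.98), as log2 changes with limma adjusted p-values of 0.00715, 0.0209 and 0.0114. The list's median was -0.35 in KO and 0.06 in WT, where the medians of all genes were -0.09 and -0.04. The WT median includes WT saline replicates 1 and 2. Replicates 3 and 4 alone had list means of -1.80 and -1.78, and the WT LPS arrays -2.37 to -1.76. Of 14 receptors, 1 fell in KO, Mrc2 (a receptor that takes up collagen for breakdown; log2 change -1.14, adjusted p = 0.0321). Without KO saline replicate 1, neither Mrc2 nor Fmod was called, Omd and Prelp were, and the receptor Lair1 was called lower instead (-0.99, adjusted p = 0.0433). Hmcn1 (hemicentin-1) was then called lower as well (-1.98, adjusted p = 0.0292). None of 26 biosynthesis enzymes and chaperones and none of 13 other basement membrane proteins was called in KO, and no gene of the 4 lists was called in WT. Without WT saline replicates 1 and 2, Lox (lysyl oxidase, which cross-links collagen) was called higher in both genotypes, by 1.38 in KO (adjusted p = 0.0418) and by 2.40 in WT (0.00727), and Hmcn1 was called lower in both, at -1.48 in KO and -1.92 in WT.

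Marker lists of several cell types had lower means after LPS in KO, where 1.14% of all genes were called lower and 2.5% higher. Of 15 meningeal and perivascular fibroblast markers measured, 4 fell in KO after LPS and none rose: the transporters Slc22a6 (-2.15), Slc6a13 (-1.79) and Slc13a4 (-1.35), and Fmod (-1.27), which also stands in the proteoglycan list. The mean level of that list was 0.79 to 1.31 on KO LPS arrays and 1.41 to 1.80 on KO saline arrays, and 0.74 to 1.42 on WT LPS arrays and 1.12 to 1.27 on WT saline arrays. Its median change was -0.68 in KO and -0.03 in WT, against -0.09 and -0.04 over all genes. The WT median includes WT saline replicates 1 and 2. Replicates 3 and 4 alone had list means of 1.27 and 1.20, inside the range of the WT LPS arrays. The defining markers Dcn and Lum were measured and not called (0.15 and 0.68), and Crabp2 had no kept probe. Of 13 endothelial markers 1 fell in KO, Tek (an angiopoietin receptor, -2.43), and the list's mean was -0.48 to -0.27 on KO LPS arrays and -0.08 to 0.57 on KO saline arrays. Pericyte and smooth muscle markers, of which 1 of 12 fell (Anpep), had a mean of -0.16 to -0.04 on KO LPS arrays and 0.01 to 0.54 on KO saline arrays. Microglial markers, of which 1 of 10 fell (Gpr34), had a mean of -0.60 to -0.28 on KO LPS arrays and -0.04 to 0.47 on KO saline arrays. In WT these endothelial, pericyte and microglial means were -0.48 to -0.11, -0.28 to -0.10 and -0.68 to -0.37 after LPS. WT saline replicates 3 and 4 read 0.39 and 0.42, 0.20 and 0.18, and 0.27 and 0.23, above these ranges. Replicates 1 and 2 read -0.19 and -0.10, -0.28 and -0.48, and -0.41 and -0.45. The lower means were thus not particular to fibroblasts. The endothelial, pericyte and microglial ones were not particular to KO once WT saline replicates 1 and 2 were left out. The part of these lists in the collagen values was not tested, and in whole tissue fewer cells of a type and less RNA per cell cannot be told apart.

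**Figure D3:**
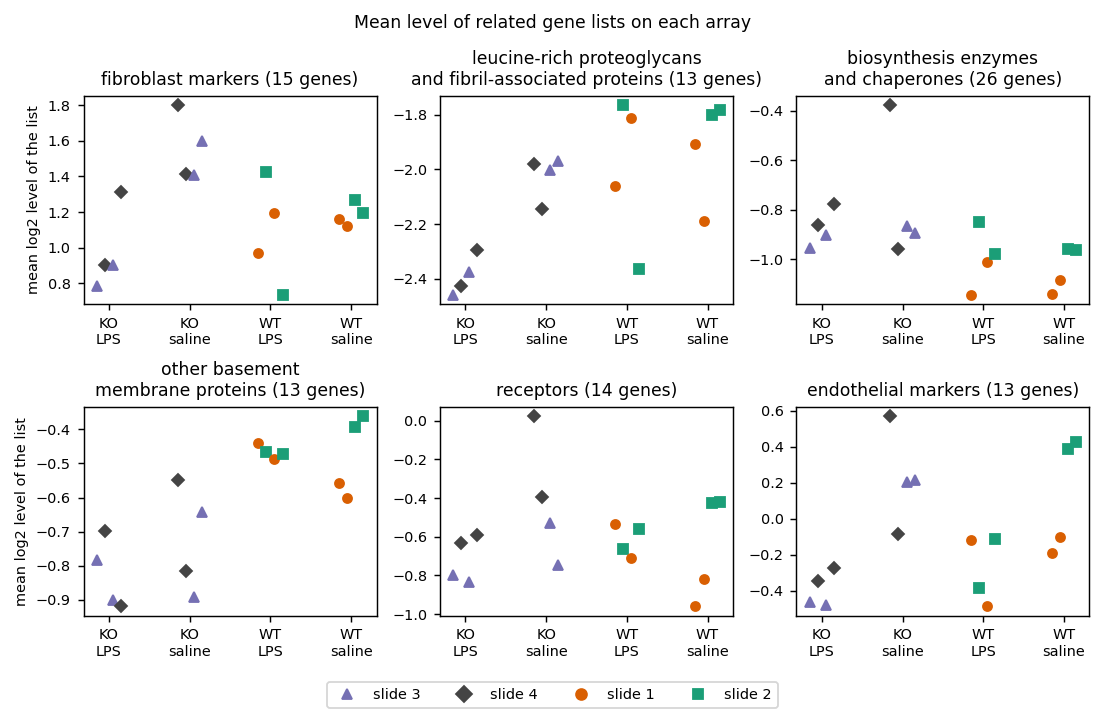
Mean log2 level of 6 gene lists on each array, by group, with symbols for the slide. The fibroblast list lies at 0.79 to 1.31 on KO LPS arrays and at 1.41 to 1.80 on KO saline arrays.

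Between genotypes after LPS, 14 of 41 members (34.1%) were called, 3 higher and 11 lower in KO, where 47.2% of all genes were called, 25.9% higher and 21.2% lower. Groups did not overlap for 13 members (31.7%), where 51.9% of all genes did not. The share among members was thus below that of the array as a whole. The median of the members was -0.19 and that of all genes 0.05. Lamc1 fell to 1.15 ± 0.28 in KO, against 2.33 ± 0.30 in WT (SD, n = 4 each), a difference of -1.18 ± 0.20 (SE, limma adjusted p = 0.000246). Every KO array of Lamc1 lay below every WT array. Among the other lower members after LPS were Col1a1, Col1a2, Col4a1, Col5a1, Col5a2, Col6a2, Col8a1, Col13a1 and Col14a1, between -1.38 and -0.67, and the higher ones were Col2a1 (cartilage-type fibrillar collagen), Col4a4 and Col4a6, between 0.83 and 1.32; Col14a1 turned to 0.0863 under normexp, and Col4a4 and Col5a1 turned in sign when probes were averaged.

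After saline, 15 members (36.6%) were called, 8 higher and 7 lower in KO, where 50.9% of all genes were, 28.6% higher and 22.3% lower. With normexp background correction the calls after saline were 18 higher and 3 lower, where 44.8% of all genes were called higher and 16.4% lower. The split thus depends on how background was removed, over all genes as in the members. Groups did not overlap for 11 members (26.8%), where 46.1% of all genes did not. Lamc1 read 1.35, 0.80, 0.91 and 0.80 in KO after saline, against 1.97, 2.43, 2.05 and 2.03 in WT after saline, and the groups did not overlap. Lower in KO were Lamc1 (-1.15), Col5a2 (-1.46), Col3a1 (-1.18), Col14a1 (-1.18), Col4a1 (-1.03), Col13a1 (-0.75) and Lama3 (-0.70), of which Col5a2, Col14a1 and Lama3 were higher in KO under normexp. Col5a2 and Col14a1 were near the detection limit: on KO LPS arrays Col5a2 was well above background on 3 of 4 and Col14a1 on 2 of 4. Col13a1, a transmembrane collagen of cell junctions, read -1.34, -2.04, -1.86 and -1.75 in KO after saline, against -1.18, -0.72, -1.04 and -1.04 in WT after saline. Higher in KO were Col8a2 (1.80), Col2a1 (1.38), Col4a6 (1.30), Col7a1 (1.03), Lamb2 (0.86), Col16a1 (0.55), Col22a1 (0.54) and Lama2 (0.47). Col2a1 read -2.63, -3.37, -2.70 and -3.18 in KO after saline, against -4.96, -5.11, -3.41 and -3.91 in WT after saline, and the groups only just did not overlap. Without KO saline replicate 1, 14 members were called, where 49.7% of all genes were; Col8a2, Col14a1, Col16a1, Col22a1 and Lamb2 were then not called, and Col5a1, Col5a3 and Col6a2 were among those then called lower. Without WT saline replicates 1 and 2, 7 members were called, where 35.8% of all genes were. Of the higher members, Col8a2 (0.46), Col2a1 (0.69), Col4a6 (0.73), Lamb2 (0.58), Col22a1 (0.29) and Lama2 (0.45) were then not called, and of the lower ones Col14a1 (-0.84), Col4a1 (-0.41) and Lama3 (-0.55) were not. Lamc1, Col3a1, Col5a2, Col13a1 and, in the other direction, Col7a1 were called in all 3 of these fits. Under normexp Col3a1 (-0.08) and Col13a1 (-0.16) were not called, and with a correction for probe base composition Col13a1 (-0.45) was not. Lamc1 and Col7a1 were called in each of these settings.

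Several of these genotype differences depended on which probe was read. Of 19 members with more than 1 kept probe, the probes differed in sign for 9 after LPS and for 10 after saline. Lama2, the alpha chain of laminin-211 in pericyte and astrocyte basement membranes, was called higher in KO by its brightest probe after saline (0.47, limma adjusted over probes 0.0224) and lower by its other probe (-0.91, adjusted 0.0027). Lama3 was also called in opposite directions after saline, and Col4a4, Col4a6 and Col5a1 after LPS. The Col2a1 probes shown above share 40 of 60 bases and gave 1.38 and 0.56 after saline. The Lama4 probes shown above share 29 bases and gave -0.09 and 0.82. Both probes of Col4a1 were called lower in KO, after saline (-1.03 and -1.28) and after LPS (-0.69 and -1.09). For Col4a2 the brightest probe gave -0.22 after saline and the other -1.67 (adjusted 0.000553).

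**Figure D4:**
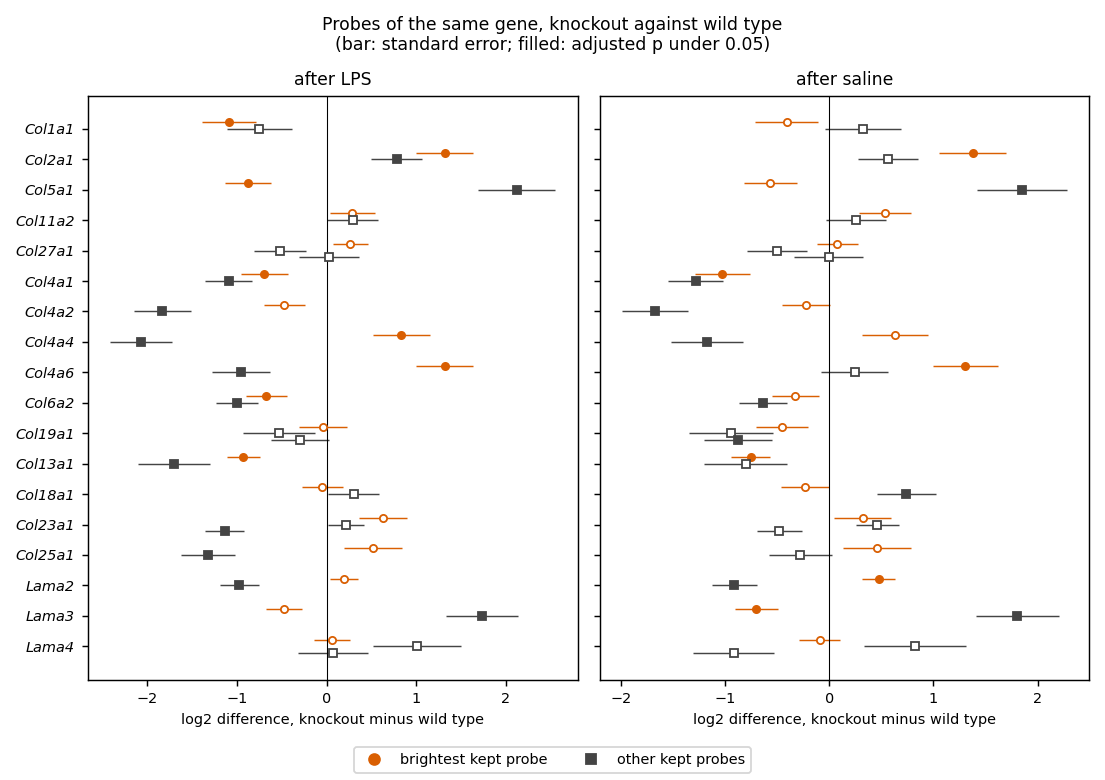
Log2 difference, knockout minus wild type (x axis, with standard error), for each kept probe of 18 genes with more than 1, after LPS and after saline; filled symbols have an adjusted p under 0.05 over all probes. The probes of Lama2 stand at 0.47 and -0.91 after saline, on opposite sides of 0, and those of Col4a1 at -1.03 and -1.28.

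Other gene lists differed between the genotypes on the same arrays. Nid1 (nidogen-1, which bridges laminin and type IV collagen) differed by -2.01 after saline and by -1.76 after LPS (KO minus WT), and P4ha1 (a collagen prolyl hydroxylase subunit) by -0.78 and -1.48. Of 13 other basement membrane proteins, 3 were called higher and 4 lower after saline, where 28.6% of all genes were called higher and 22.3% lower. Oligodendrocyte markers had a mean of 0.57 to 1.09 on KO arrays and 0.92 to 2.61 on WT arrays, and striatal markers -0.77 to -0.25 on KO arrays and -0.07 to 1.30 on WT arrays. Neuronal markers had a mean of 4.06 to 4.21 on KO arrays and 3.37 to 4.00 on WT arrays, which did not overlap. Choroid plexus markers, from a tissue rich in collagen, had a mean of -3.86 to -2.63 on KO arrays and -3.34 to -0.46 on WT arrays. The part of these differences in the collagen and laminin values was not tested, and slide and genotype cannot be told apart for any of them.

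The spread among arrays of a group differed widely between members. Of the 41, 35 were well above background on all 16 arrays; the others were Col5a2, Col6a1, Col9a1, Col9a3, Col14a1 and Col25a1. Col6a1, a chain of the beaded filaments around cells, read 0.49, -0.20, -5.94 and 0.03 in WT after LPS, against 1.01, 0.15, -0.36 and -0.56 in WT after saline. Replicate 3 alone was low, the probe was well above background on 3 of the 4 LPS arrays, and the WT change was -1.47 ± 0.98 (SE). Col9a3, a fibril-associated chain, read -6.39, -2.65, -5.57 and -2.75 in WT after LPS, against -6.76, -2.18, -2.12 and -2.11 in WT after saline; the 3 low arrays are all on slide 1. For Col12a1 the array WT saline replicate 4, and for Col19a1 the array WT LPS replicate 2, held an outlier spot and was dropped from the fit of that gene.

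**Figure D5:**
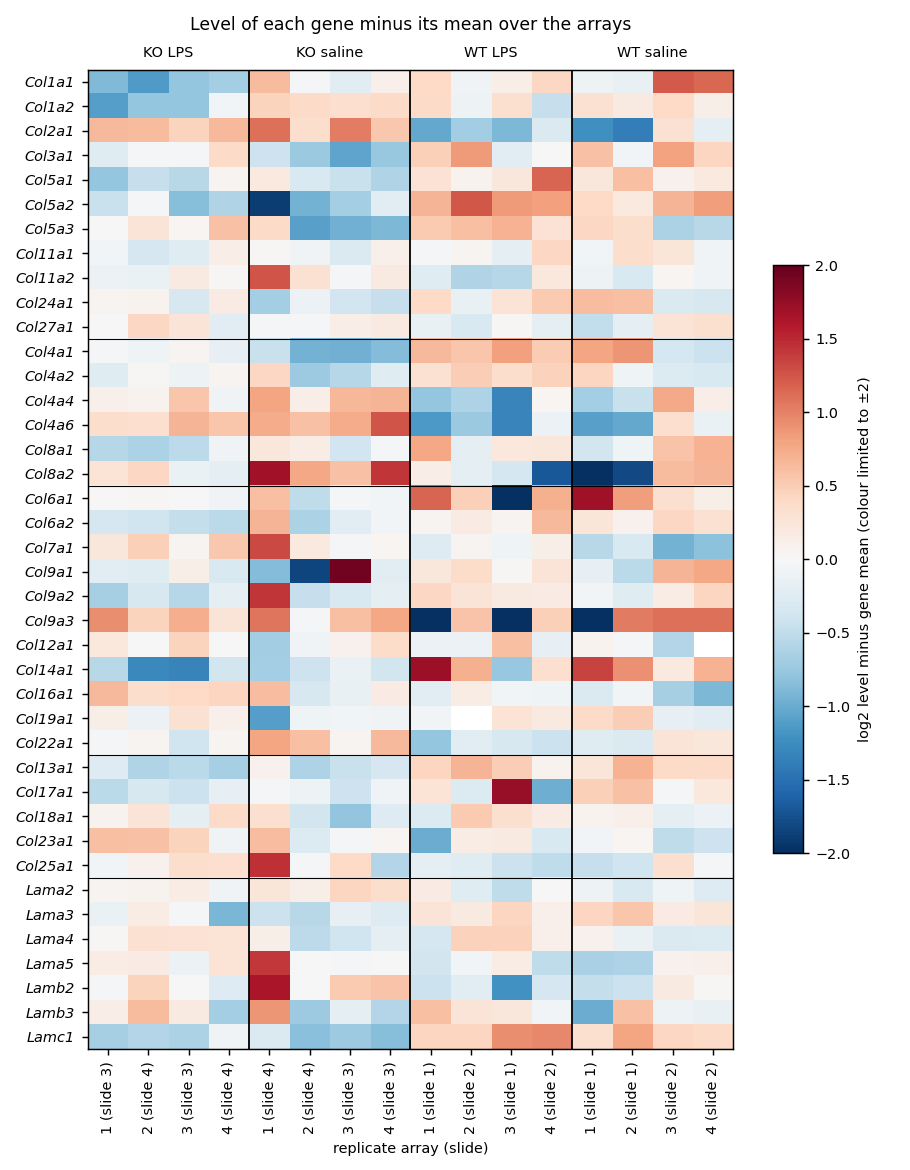
Level of 40 of the genes on each array minus the gene's mean over the arrays (colour, log2, limited to 2 in each direction), with genes in rows by family and arrays in columns by group; white cells are dropped spots. The KO saline replicate 1 column stands apart within its group, as for Lama5, whose level there was 0.34 before the mean was subtracted.

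The authors' deposited table of fold changes lists 14 of the 41 members. In KO after LPS, the authors' deposited table gives Col1a2 as 2.08-fold down, Col8a2 as 2.04-fold down and Col1a1 as 1.99-fold down. For KO against WT after saline, the authors' deposited table gives Col5a2 as 2.82-fold down and Col8a2 as 3.495-fold up.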

How the data were processed

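The 16 arrays were 1-colour Agilent mouse arrays (Cy3), 4 per group. The authors deposited the scanner output: per the file headers the processed spot intensity was background-subtracted and detrended within each array, and Feature Extraction 9.5 was used per the submitters' processing notes. The authors also deposited group means of normalized log2 values and a list of linear fold changes between those means; the tool behind them is not given in the sources used here, and 32 per-array columns of detection calls in these lists were not used. Transcript probes (41174) were named by RefSeq accession where the table held it (24844) and otherwise by the name in the files. Outlier spots were set to missing (0 to 79 per array), and no spot was saturated. Log2 of the processed intensity minus the array's 75th percentile was computed, probes well above background (58.1% to 71.9% per array) on at least 3 of 4 arrays of a group were kept (28347), and each gene took its brightest kept probe. limma 3.58.1 (R 4.3.3) was fitted with 4 group means over 16 arrays, with 5 comparisons and p-values adjusted over 19463 genes, or over all kept probes where single probes are compared. On simulated data, 85% of changes of 2 and 95% of changes of 3 (log2) were recovered for LPS in KO. Smaller changes, such as the -1.06 to 0.86 of the members after LPS in KO, were not simulated. Recovery at that size is therefore not known. No pair of arrays was a copy: the smallest median absolute difference was 0.12. The number of arrays limits the precision.

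The members and lists were chosen with earlier results of these data known. Named genes were a set of main vascular, fibroblast and fibrillar chains, the called members of each comparison and, where fewer than 3 were called, the 3 with the smallest p; other members were named after their values were seen. The values of 1 member are not reported here; it stays in the fits and counts. Same-numbered arrays correlated between -0.38 and 0.34 in their deviations, so numbers do not pair arrays. Alternatives covered scaling, background, filter, probe averaging, slide, arrays left out and, added after seeing the data, probe base composition and the WT saline arrays of slide 1.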

Additional observations from a re-analysis of the deposited data

Results flagged for a closer look

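In 158 groups of 4 arrays tested over 40 members, 11 had an array far from the other 3 by Dixon's test, where chance flags about 1 in 20. KO saline replicate 1 accounts for 4 of them: Col5a3 (-0.79), Col9a2 (0.90) and Lama5 (0.34) were high there and Col19a1 (-1.05) was low. KO LPS replicate 3 was low for Col2a1 (-3.29) and Col22a1 (-0.32). WT LPS replicate 3 was high for Col12a1 (-2.38) and low for Col6a1 (-5.94). The others were Lama4 in KO LPS replicate 1 (low, -1.73), Lamc1 in KO LPS replicate 4 (high, 1.57) and Col9a3 in WT saline replicate 1 (low, -6.76). No LPS response differed between the genotypes past the threshold in the interaction test.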

How the results depend on the processing

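The call of Col1a2 after LPS in KO held in 27 of 29 alternatives, many of which differ from the main fit by 1 array. Those that leave out only WT arrays cannot move this change and alter only the pooled spread. The call was lost with normexp background correction (-0.84, limma adjusted p = 0.0585) and on slide 4 alone (-0.82). For LPS in KO, 1 member was called, where 3.64% of all genes were. Normexp gave 0 (2.18% of all genes), and leaving out WT saline replicates 1 and 2 gave 3 (4.9% of all genes). Leaving out single arrays gave 1 to 2, slide 4 alone 0, the slide as a block 2, slide 3 alone 3 and only the KO arrays 3. For LPS in WT the count was 2 without WT saline replicates 1 and 2 (3.14% of all genes) and 0 in every other alternative. The interaction gave 0 throughout. After saline there were 15 genotype calls, where 50.9% of all genes were called. They became 7 without WT saline replicates 1 and 2 (35.8% of all genes) and 10 to 16 with single arrays left out. Normexp changed the split to 18 higher and 3 lower, where 44.8% of all genes were called higher and 16.4% lower. After LPS, 14 became 9 with the slide as a random block and 9 to 19 with single arrays left out. Reversed under normexp, after saline, were Col14a1 (1.02), Col5a2 (0.56) and Lama3 (0.70), and after LPS Col14a1 (0.0863). Reversed when the probes of a gene were averaged were Lama2 (-0.22) and Lama3 (0.55) after saline and Col4a4 (-0.62) and Col5a1 (0.63) after LPS, whose probes disagree. For the other changes the cause was not tested. With the replicate number as a block, the counts were 1 (LPS in KO), 0 (LPS in WT), 13 (genotype after saline), 12 (genotype after LPS) and 0 (interaction). The replicate numbers do not pair the arrays. Where a count of calls above stands without a share, the share of all genes called in that setting is not given. Such counts do not show a change particular to the members.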
